A study of Mus musculus with 12 samples.

Results

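The Jun and Fos genes encode the core subunits of the transcription factor AP-1. Their RNA had peaks of enrichment with an antibody to N6-methyladenosine (m6A) in both lists of the series. The members are Jun, Junb, Jund, Fos, Fosb, Fosl1 and Fosl2, taken by gene name from the peak lists. The rule uses no measured value, but the members were chosen with earlier results of these data known. They held 17 of 36682 peaks in the wild-type (WT) list and 18 of 41153 peaks in the Mettl3 knockout (KO) list, and they were 7 of the 14070 named genes with a peak in either list. The cells were BV2, a mouse microglial line immortalised with a retrovirus carrying v-raf and v-myc, and the titles mark every sample as LPS-treated. LPS, the lipopolysaccharide of the bacterial outer membrane, is thus shared by both genotypes, and its dose and time, the number of knockout clones and what separates the replicates were not given in the labels. Each genotype had 3 libraries of RNA pulled down with an m6A antibody (IP) and 3 input libraries, 12 in all, but the values came as 1 list per genotype. No replicate spread could be measured, so the differences below are descriptions of these lists without a test of the genotypes.

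AP-1 is a family of dimers held together by leucine zippers. JUN proteins can pair with each other or with FOS proteins, while FOS proteins need a JUN partner to bind DNA. LPS acts through TLR4 and the MAP kinases ERK, JNK and p38, which induce some Jun and Fos genes within minutes and phosphorylate their proteins. The messages of rapidly induced members such as Fos are short-lived. The mark m6A, placed on adenosines by METTL3 and bound by YTH-domain readers, is known to be able to speed the decay of mRNA.

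Every enrichment here is a log2 of IP over input given to a peak by the authors, and every adjusted p is theirs too; a log2 of 1 is a 2-fold enrichment. An enrichment is relative to the input of the same gene and does not measure how much RNA there was. It comes from pull-down with an antibody, so a listed peak, in KO above all, is not by itself shown to be m6A. In bulk RNA, fewer cells of a type and less RNA per cell cannot be told apart. Peaks were listed for 9 of 10 microglial marker genes in each list, P2ry12 being the one without a peak, for 1 of 8 neuronal and neuroblastoma markers (Tubb3) and for 0 of 4 astrocyte markers. The extraction protocol speaks of neuroblastoma cells, so this check bears on the label. A listed peak needs both RNA and enrichment in the IP, so a marker without a peak is not shown to lack RNA. The largest adjusted p of a member peak was 0.00345 in WT and 0.00156 in KO.

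The lists name no genome build. Over 13047 genes matched by symbol, 47.9% had a start or end on exactly the same base as RefSeq's gene in GRCm38.p6, and the start of Jun did too, so positions are read on that build. No sequence of the peaks themselves was at hand, but RefSeq start windows, from 250 bases before to 50 bases after a gene's start, existed for 6 of the 7 genes. They were searched on the transcribed strand for GGAC followed by A, C or T, common spellings of the m6A consensus, in which the A of GGAC is the methylated base. These spellings differ only in the last base and cannot share a start. Within the 50 transcribed bases, 3 of 6 members (Jun, Junb and Fosb) held a match, against 15.4% of 32851 windows of all genes; on the opposite strand it was 0 of 6 and 14.4%. The stretches below are shown because they lie in or next to a peak of the gene, 5′ to 3′ on the transcribed strand, with 1 match per stretch in capitals.
Jun: caggctggataaGGACTcagagttgcactg
Junb: gccgagcactggGGACTttgagggtggcca
Fosb: cggctacgccggGGACAcgcggagccgggg
Fosl2: ttttagagggagGGACTcggtggacaaccg

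The Jun stretch is chr4:95052185-95052214 on the minus strand, with the motif beginning at base 21 of the transcript, inside the Jun peak of both lists. The Junb stretch, chr8:84978699-84978728 on the minus strand, has its motif at base 33 and just upstream of the Junb peak, which begins at 84978709. The Fosb stretch is chr7:19310000-19310029 on the minus strand, with the motif at base 29, and the WT peak at the start of Fosb lies just downstream, beginning at 19309983. The Fosl2 stretch, chr5:32136443-32136472 on the plus strand, ends at RefSeq's start, so its motif lies upstream of it but inside the longer gene of the lists. It also holds a match left in lower case, GGAC followed by A, from 32136464 to 32136468, and another Fosl2 match, GGAC followed by C, lies from 32136422 to 32136426. All 3 Fosl2 matches fall in the second WT peak of the gene, from 32136401 to 32136925, and outside the KO peak at that place, which runs from 32136476 to 32136875. A match of letters is not a mapped m6A site, and none of these windows says which adenosine was methylated.

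Among the JUN genes, all of which lack introns, each was covered nearly from end to end by peaks in both lists, and each had the lower value in KO, with differences on the log2 scale from -1.10 to -0.91. Jun, the founding AP-1 subunit and target of the JNK kinases (ENSMUSG00000052684, chromosome 4 from 95049034 to 95052222, minus strand), had 1 peak that filled the annotated gene, 3189 bases, with the same ends in both lists. Its log2 was 4.61 in WT, or 24.3-fold, and 3.65 in KO, or 12.5-fold, with the adjusted p listed as 0 in both. The difference, KO minus WT, was -0.96, yet the rank of Jun was nearly the same, 102nd of 13363 genes in WT and 103rd of 13027 genes in KO by the strongest peak. The list annotates this peak as 3' UTR although it spans the coding sequence as well, so the class of a peak this long says little about where in the RNA the signal lay.

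Junb, a JUN protein that often restrains JUN-driven growth (ENSMUSG00000052837, chromosome 8 from 84976910 to 84978718, minus strand), also had 1 peak with identical ends in both lists, covering 1800 bases or 99.5% of the gene. Its enrichment was 4.08-fold in the WT list (log2 2.03) and 2.18-fold in the KO list (log2 1.12), with the adjusted p listed as 0 in both. The peaks of Jun and Junb belong to the 2916 peaks that have the same ends and strand in both lists, so both values of a pair refer to the same bases. The median difference over those pairs was -0.057, and 4.18% of them were as low as Jun or lower and 4.77% as low as Junb or lower. Those pairs were not matched for enrichment, so these shares do not compare Jun and Junb with equally enriched peaks. Among the 2287 genes with a mean log2 of at least 2 over both lists, Jun included, the median difference of the strongest peak was -0.81.

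Jund, the most constantly expressed JUN gene in many cells (ENSMUSG00000071076, chromosome 8 from 70698949 to 70700616, plus strand), had 1 WT peak over its 1668 bases at a log2 of 2.74. The KO list split the same gene into 2 peaks with a short gap. The one over the first 450 bases, annotated as 5' UTR, stood at 0.80 with an adjusted p of 1.53e-101, and the one over the last 1168 bases, annotated as 3' UTR, at 1.65. Against the single WT value, the upstream KO peak differed by -1.95 and the downstream one by -1.10. In KO the downstream part was thus the more enriched, a contrast for which WT has no counterpart, since its peak is not divided. RefSeq places the start of Jund 1210 bases upstream of the gene in the lists, and no peak of Jund reached there.

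**Figure D1:**
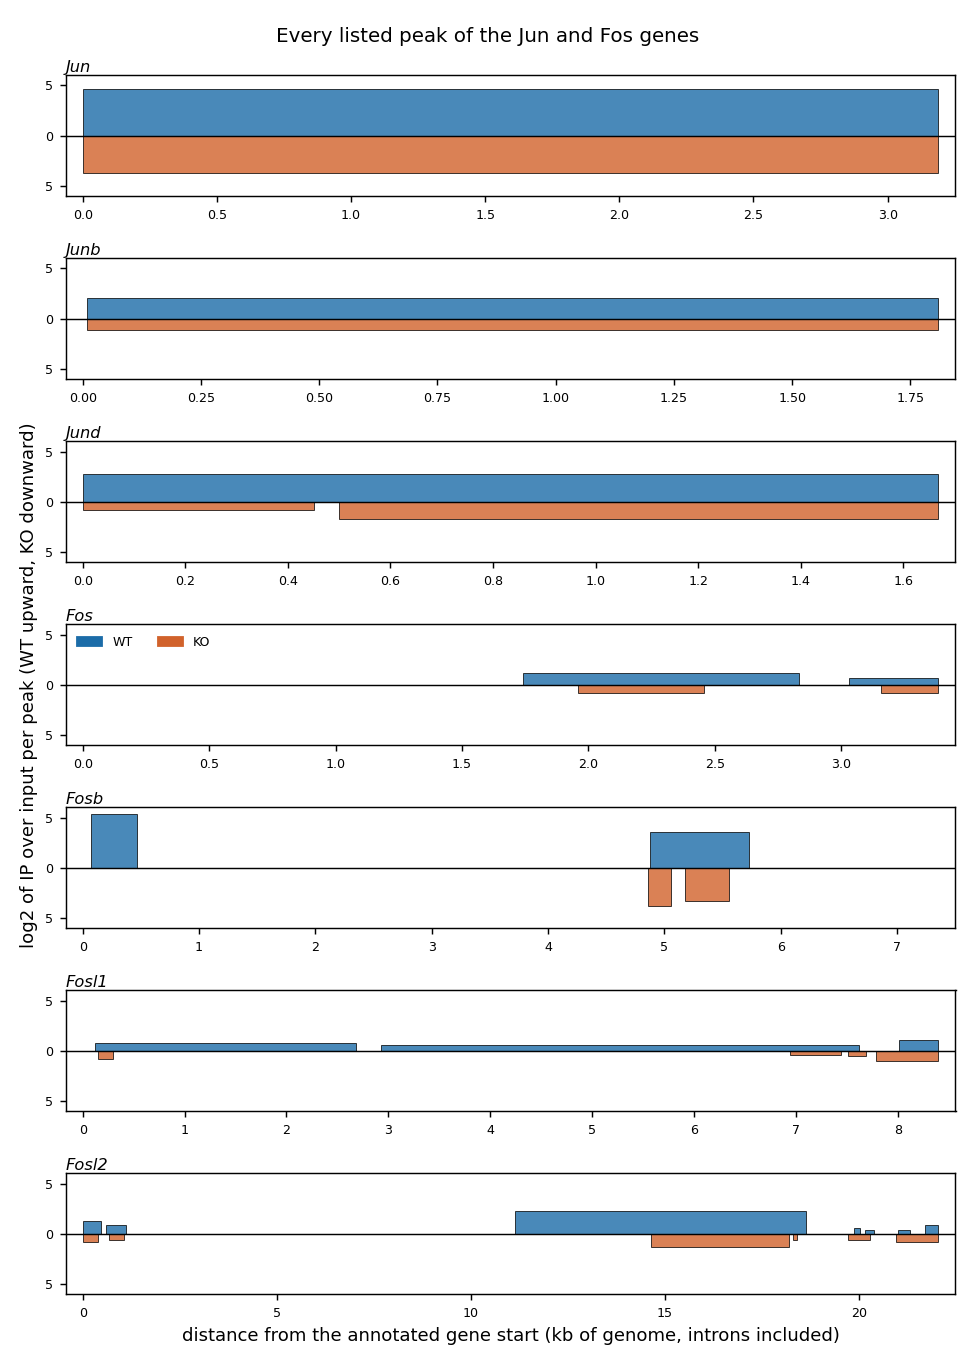
Every listed peak of the 7 genes, drawn from the annotated gene start on the left to its end on the right in kilobases of genome (introns included), with the height of a bar giving the log2 of IP over input, WT upward and KO downward. The bars of Jun and Junb are mirror images in extent and differ in height (4.61 and 3.65, 2.03 and 1.12), while Fosb has a WT bar at its start with no KO bar below it.

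The FOS genes were less alike. Fosb stood among the most enriched genes of both lists. The main peak of Fosl2 was lower in KO by about as much as the JUN genes, and Fos and Fosl1 were weakly enriched in both genotypes. All 4 have introns, so the span of a peak over several exons counts bases that are not in the mature RNA.

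Fosb, whose truncated splice form accumulates in neurons after repeated stimulation (ENSMUSG00000003545, chromosome 7 from 19302696 to 19310051, minus strand), had the strongest member peak of the series. That WT peak covered 400 bases near the start of the gene, 19309584 to 19309983, annotated as 5' UTR. Its enrichment was 40.0-fold (log2 5.32), and its adjusted p was 9e-13. It ranked 48th of 36682 WT peaks and was the only member peak in either list that overlapped no peak of the other list. The other WT peak, 19304321 to 19305170 and annotated as 3' UTR, stood at 3.58 with an adjusted p of 1.05e-31. The KO list had 2 peaks in that same place: 200 bases annotated as coding exon at 3.79 (adjusted p = 4.3e-08) and 375 bases annotated as 3' UTR at 3.25 (adjusted p = 1.13e-10).

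The Fosb difference therefore depended on where it was read. Taking the strongest peak wherever it lay, Fosb differed by -1.53 in KO, the largest difference among the members, but the comparison sets the start of the gene in WT against its 3' part in KO. Where the lists overlapped, 1 KO peak was higher than the WT peak by 0.21 and the other differed by -0.33. The p-values of Fosb were large for its folds: Junb at 4.08-fold had an adjusted p listed as 0, and Fosb at 40.0-fold had 9e-13. The reads behind each peak were not analysed here. With the mean over its peaks in place of the strongest, the difference of Fosb was -0.93.

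Fosl2, which encodes FRA-2 (ENSMUSG00000029135, chromosome 5 from 32135801 to 32157842, plus strand), had the most peaks, 7 in WT and 6 in KO. The main one, annotated as 3' UTR, ran from 32146927 to 32154437 in WT at a log2 of 2.29 and from 32150446 to 32153987 in KO at 1.26, a difference of -1.04. At the gene start, the first peak was listed at 1.28 in WT against 0.79 in KO, the second at 0.86 against 0.63. With the mean over its peaks the difference of Fosl2 was -0.16, and with peaks of at most 1000 bases it was -0.49.

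Towards the gene end the order within Fosl2 changed. A KO peak of 0.61 (32155513 to 32156087) overlapped WT peaks of 0.57 and 0.44, and the last KO peak, 0.84 (32156763 to 32157837), overlapped WT peaks of 0.36 and 0.88. Over the 8 overlapping pairs of this 1 gene, differences went from -1.66 to 0.48. The 4 pairs at the start and in the main peak lay between -1.66 and -0.23, and the 4 near the end between -0.040 and 0.48. All these peaks share 1 gene and are not replicates of each other.

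Fos, the immediate early gene induced first by growth factors and LPS (ENSMUSG00000021250, chromosome 12 from 85473890 to 85477273, plus strand), had 2 peaks per list, both in its 3' part. The upstream one stood at 1.20 in WT (adjusted p = 2.67e-39, 1092 bases, annotated as 3' UTR) and at 0.76 in KO (adjusted p = 4.32e-07, 500 bases, annotated as coding exon). The one at the gene end stood at 0.69 in WT and 0.78 in KO. The strongest peak of Fos was thus the upstream one in WT and the end one in KO, and the listed difference of -0.42 compares different places. Restricted to peaks of at most 1000 bases, which leaves out the WT upstream peak, it was 0.087. No peak was called at the start of Fos in either list.

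Fosl1, which encodes FRA-1, a FOS protein without the activation domain of FOS (ENSMUSG00000024912, chromosome 19 from 5447547 to 5455946, plus strand), differed least. Its peak at the gene end, annotated as 3' UTR, stood at 1.04 in WT (adjusted p = 6.6e-32) and 1.02 in KO (adjusted p = 2.5e-35). The 5' UTR peak stood at 0.82 and 0.81, although it spanned 2554 bases in WT and 150 in KO. The WT coding-exon peak of 0.57 spanned 4688 bases and overlapped 2 KO peaks of 0.43 and 0.51. The difference of -0.022 between its strongest peaks turned to 0.052 with a mean weighted by span and to 0.26 with each list centred on its median gene.

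**Figure D2:**
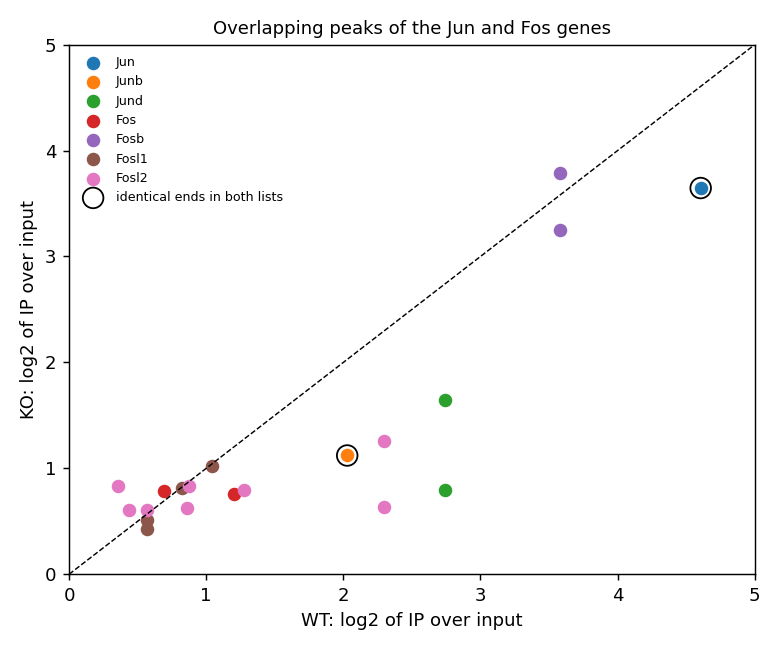
Each point is a pair of overlapping member peaks, 1 from each list, with the WT log2 of IP over input across and the KO log2 upward; the dashed line marks equal values and the 2 rings mark pairs with identical ends (Jun and Junb). Pairs of Jun, Junb, Jund and the main Fosl2 peak lie below the line, those of Fosl1 lie within 0.14 of it, and 3 pairs near the end of Fosl2, 1 of Fos and 1 of Fosb lie above it.

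By the strongest peak, the members fell in the order Fosb, Jun, Jund, Fosl2, Junb, Fos and Fosl1 in WT, and the same order held in KO except that Fos and Fosl1 changed places. Without a replicate spread, no pair of neighbours in this order can be said to differ. Jun stood above 99.2% of all genes in both lists, and Fosb above 99.7% in WT and 99.4% in KO. Jund stood above 87.8% of genes in WT and 80.3% in KO, Fosl2 above 79.5% and 63.2%, Junb above 72.9% and 53.9% and Fos above 42.5% and 18.8%. Fosl1 went the other way, from 33.2% in WT to 45.3% in KO. The median gene stood at 1.36 in WT and 1.07 in KO, so Fos and Fosl1 lay below the median of both lists.

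**Figure D3:**
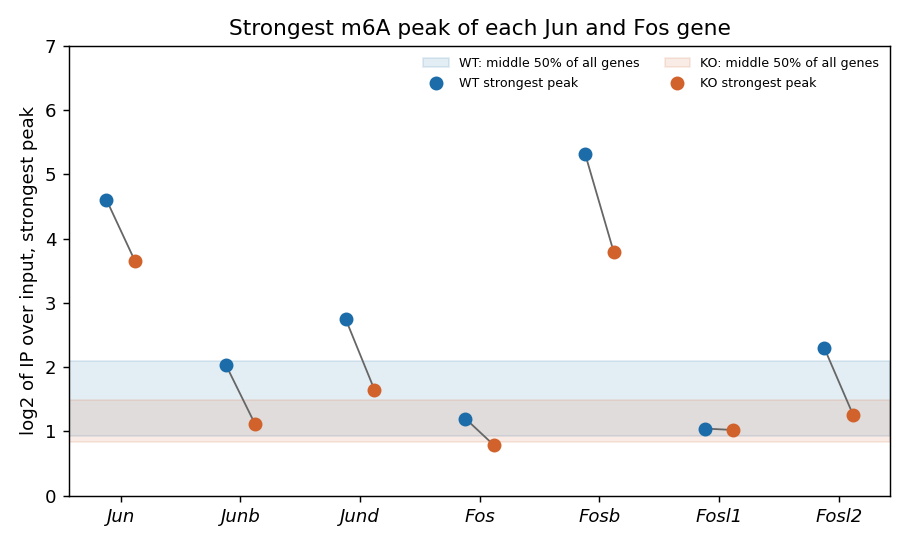
The log2 of IP over input of each gene's strongest peak, WT in blue and KO in orange, joined per gene, with shaded bands for the middle 50% of all genes in each list. Jun and Fosb lie above both bands in both lists, and the line of Fosl1 (1.04 to 1.02) is nearly flat.

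All 7 members had the lower strongest value in KO, against a background of 73.4% of the 12320 genes present in both lists. For Fosb and Fos the strongest peaks of the lists lay at different places, so their differences do not compare the same bases. The median member difference was -0.96, with a range from -1.53 for Fosb to -0.022 for Fosl1, and the median over all genes was -0.25. With each list centred on its own median gene, 6 of 7 members were lower and the median over all genes was 0.035. The centred share of all genes that were lower was not computed, and the 73.4% is not centred. With a centred median above 0, lower genes were not the majority of all genes. A value lower by at least 1 was listed for 3 members, Jund, Fosl2 and Fosb, against 9.54% of all genes. Jun at -0.96 and Junb at -0.91 lay just short of it. That count was 1 under 5 of the alternative settings.

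The members with strong peaks can be set beside other strong genes. Among the 2287 genes whose mean over both lists was at least 2, the median difference was -0.81 (interquartile range -1.10 to -0.46), and 32.8% were lower by at least 1. Jun, Jund and Fosb belong to those genes, and Jund and Fosb were lower by at least 1. The difference of Jun lay inside that interquartile range and those of Jund and Fosb at and below its lower end. That of Fosb compares different places in the gene. Nothing particular to the family can be read from these differences.

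**Figure D4:**
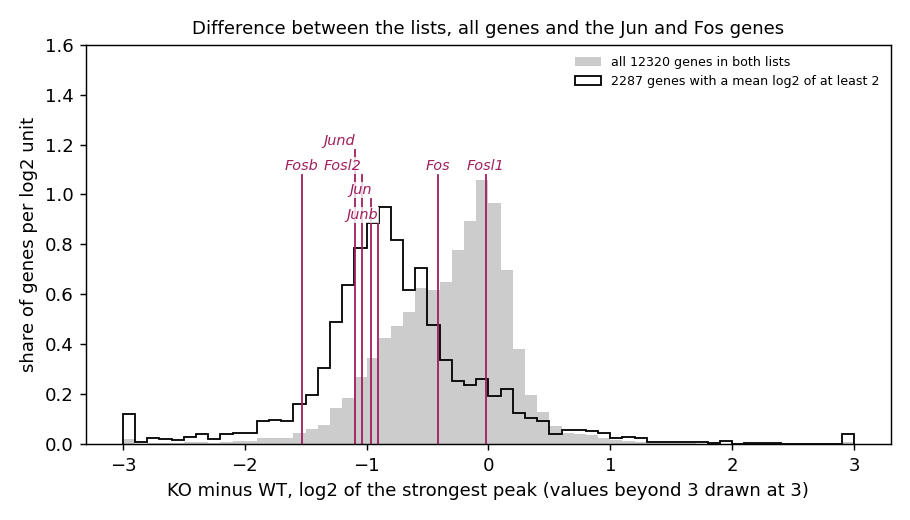
Distribution of KO minus WT differences in the log2 of the strongest peak, with all 12320 genes in grey, the 2287 genes with a mean log2 of at least 2 as an outline, and the members as labelled lines. Jun, Junb, Jund and Fosl2 stand together between -1.10 and -0.91 near the crest of the outline, while Fosl1 stands near 0. Junb and Fosl2 have a mean log2 below 2 and are not among the genes of the outline.

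The amount of each gene covered by peaks also differed between the lists. Peaks covered fewer bases in KO for 5 members and the same number for Jun and Junb, against 43.2% of all genes with fewer. For Fosl1 the covered share of the gene was 90.7% in WT and 16.9% in KO, for Fosl2 43.3% and 27.8%, for Fos 42.6% and 21.4%, and for Fosb 17.0% and 7.82%. For Jund it was 100% and 97.0%. Over the 7 genes the sum was 26502 bases in WT and 15445 in KO; the member median of the KO share of WT bases was 64.1%, and that of all genes 101%. The WT sum includes single peaks of 7511 bases in Fosl2 and 4688 bases in Fosl1. These genes had the largest drops, Fosl1 from 7617 covered bases in WT to 1421 in KO and Fosl2 from 9536 to 6117. Spans were taken on the genome with introns included, so covered bases are not lengths of mature RNA.

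Of the 17 WT member peaks, 16 overlapped a KO peak on the same strand by at least 1 base, against 77.2% of all WT peaks, and all 18 KO member peaks overlapped a WT peak, against 72.9% of all KO peaks. A reciprocal overlap of 50% left 7 of 17 and 7 of 18, and the share of all peaks under that rule was not computed. At 4-fold or more there were 6 WT member peaks, in Jun, Junb, Jund, Fosl2 and Fosb, where such peaks made up 11.7% of the list. In KO there were 3, of Jun and Fosb, where they made up 3.93%. By annotated class, 12 of the WT peaks were 3' UTR, 4 were 5' UTR and 1 coding exon; in KO the numbers were 10, 4 and 4. Over the whole lists these classes held 53.0%, 11.9% and 21.1% of WT peaks and 51.4%, 11.9% and 25.1% of KO peaks. In each list, 6 of the 7 genes had a peak ending within 10 bases of the annotated gene end. The same share over all genes was not computed, so this count cannot be called particular to the members. Fosb was the exception, with its nearest peak 1625 bases away in WT and 1800 in KO.

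The pair of values of a gene, WT and KO, can be matched to other genes by their distance on the log2 scale, a measure over only 2 values per gene. The nearest to Jun were Fam171a2 (4.72 and 3.65) and Pcdhb17 (4.72 and 3.74), and to Fosb Thap7 (5.11 and 3.82) and Gm36279 (5.11 and 3.83). For Jund the nearest were Sipa1l2 (2.74 and 1.65) and Foxk2, for Fosl2 Parp8 (2.31 and 1.25) and AC099860, for Junb Nr1h3 (2.02 and 1.13) and Fnbp1, for Fos Klhl36 (1.20 and 0.79) and Cog1, and for Fosl1 Sike1 (1.05 and 1.02) and Gm45234. The nearest genes to Jun and Fosb lay farther off, at 0.11 and 0.21, than those of the other members, at most 0.016.

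The genes of proteins that pair with JUN and FOS, or compete with them, had a share of lower values near that of all genes. Of 14 AP-1 partner genes (BATF, ATF, JDP2, MAF and NRF2 proteins), 13 had peaks in both lists, and 10 of the 13 were lower in KO, beside 73.4% of all genes. The median difference was -0.65, but it was -0.24 with the mean over peaks and -0.018 with peaks of at most 1000 bases. Among the highest WT values were those of Jdp2, a repressor that binds JUN, at 3.83 in WT and 2.72 in KO, and of Maf at 3.25 and 3.63. Batf, which pairs with JUN proteins, had peaks in WT only, up to 2.92, as 1043 of the 13363 genes with a WT peak did. Batf2 and Jdp2, 2 of the 13, were lower by at least 1, beside 9.54% of all genes.

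Immediate early genes, which are induced with Fos before new protein is made, had peaks in both lists for 13 of 15, while Egr1 and Nr4a3 had none in either. In KO 11 of the 13 were lower, beside 73.4% of all genes. With each list centred on its median gene, 8 of the 13 were lower. The centred share of all genes was not computed, but their centred median was 0.035. The median difference was -0.58, which turned to 0.26 with peaks of at most 1000 bases. Myc stood at 4.36 and 3.40, Ier5 at 3.45 and 2.63 and Ier2 at 3.15 and 2.15. Dusp1, the phosphatase that switches off JNK and p38, stood at 2.04 and 1.46.

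All 25 upstream regulators, the kinases, ubiquitin ligases and factors that act on the Jun and Fos genes or proteins, had peaks in both lists. Of these, 17 were lower in KO and 8 higher, beside 73.4% of all genes lower, with a median of -0.17. With each list centred on its median gene, 10 of the 25 were lower and the median turned to 0.11, beside a median of 0.035 over all genes. The centred share of all genes that were lower was not computed, and the 73.4% is not centred. Fbxw7, the ubiquitin ligase subunit that marks JUN for destruction, stood at 3.96 and 3.10, Elk4, a partner of SRF at the Fos promoter, at 3.33 and 2.23, and Creb1, which binds the same promoter, at 3.30 and 2.19. The JNK genes Mapk8 (1.04 and 1.09) and Mapk9 (0.93 and 1.06) and the ERK gene Mapk3 (1.62 and 1.65) differed by at most 0.13, whereas Map2k4, which activates JNK, stood at 2.39 and 1.31.

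**Figure D5:**
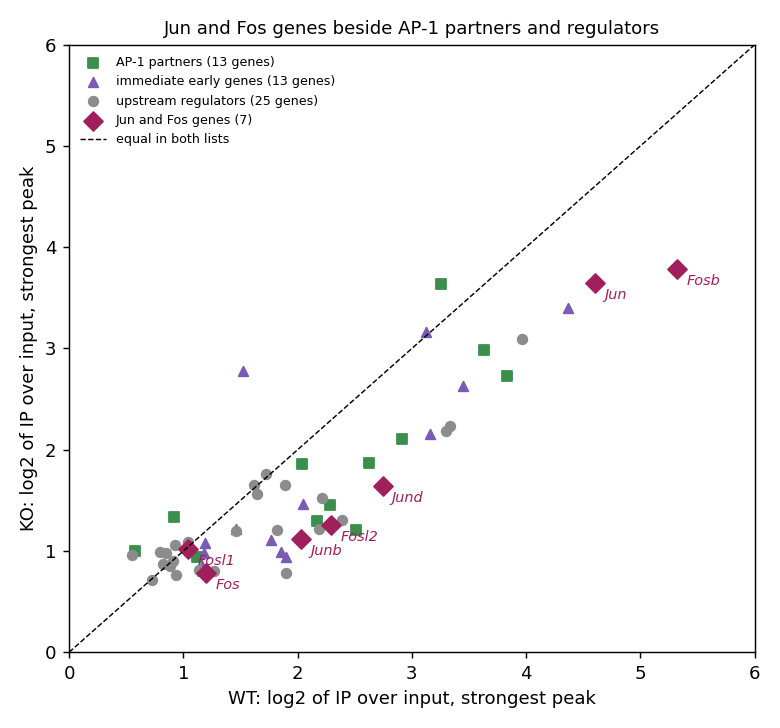
The WT and KO log2 of the strongest peak for the 7 members (diamonds), 13 AP-1 partners (squares), 13 immediate early genes (triangles) and 25 upstream regulators (circles), with a dashed line of equal values. Most genes with a WT value above 2 lie below the line, members included, and genes near 1 scatter around it.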

How the data were processed

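Per the labels' protocols, fragments of polyadenylated RNA were pulled down with an antibody to m6A and sequenced from dUTP-marked libraries. Tools named in the submitters' processing notes, with no version or role, are edgeR, StringTie, HOMER, HISAT2, FastQC and fastp. How peaks were called, and whether replicates were pooled, is not given in the sources used here. Lists as deposited by the authors hold, per the file headers, a log2 fold and a raw and adjusted p-value per peak; that the fold is IP over input is read from the sample groups and from every value being above 0. Depth per library is unknown here.

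Each gene was given the log2 of its strongest listed peak, and differences are KO minus WT. Deposited starts were taken as counted from 0 and are printed counted from 1. Overlap is 1 shared base on the same strand. Alternatives were an adjusted p of at most 0.001, at least 4-fold, short peaks (at most 1000 bases), means over peaks (plain or weighted by span), peaks inside the annotated gene, centring, ignored strand, a 50% reciprocal overlap and, added after seeing the data, overlapping peaks only; the count of members lower by at least 1 was added then too. The members and lists were chosen with earlier results of these data known. Named are all members, the 3 genes of each other list with the highest WT value and those with a peak in 1 list only, and the 2 nearest genes of each member; Dusp1, Mapk3, Mapk8, Mapk9, Map2k4, Batf2, Egr1, Egr3, Nr4a3, P2ry12 and Tubb3 were added after their values were seen, and some values under this rule are not reported here. Python 3.11.15, pandas 2.3.3, numpy 2.4.6 and matplotlib 3.10.9 were used, and the steps were tested on simulated data.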

Additional observations from a re-analysis of the deposited data

How the results depend on the processing

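No paired analysis was possible because each genotype is 1 list with no columns per replicate, and for the same reason no replicate could be left out. Jun, Junb, Jund and Fosl2 were lower in KO under each setting in which they had a value in both lists. Short peaks left only Fos, Fosb, Fosl1 and Fosl2 such values, and 4-fold peaks only Jun and Fosb. Jun and Junb have 1 peak per list, so settings that only choose or average peaks could not change their differences. Only centring moved these, to -0.68 for Jun and -0.63 for Junb. The number of members lower in KO was 3 of 4 with short peaks, 2 of 2 at 4-fold, and 6 of 7 with the span-weighted mean, with centring and with overlapping peaks only. The median member difference was -0.25 with short peaks. Members lower by at least 1 numbered 1 with 4-fold peaks, the mean over peaks, short peaks, the span-weighted mean and centring. For neither count was the share of all genes computed under these settings. The difference turned to 0.087 for Fos with short peaks, to 0.21 for Fosb with overlapping peaks only, and for Fosl1 to 0.052 with the span-weighted mean and 0.26 with centring. With centring the medians of upstream regulators and of all genes turned to 0.11 and 0.035, and with short peaks that of immediate early genes to 0.26. The share of WT member peaks that overlapped a KO peak was 33.3% at 4-fold and 41.2% with the reciprocal overlap. That of KO member peaks was 38.9% with the reciprocal overlap and 53.8% when peaks were short. The shares over all peaks under these settings were not computed, so these drops cannot be called particular to the members. The differences of Fosl2 and Fos were -0.16 and -0.18 by the mean over peaks. The 4-fold and short-peak settings keep fewer peaks; otherwise the cause was not tested.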

Other observations

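Egr3, an immediate early transcription factor, was the 1 gene of its list with a KO value higher by at least 1, at 2.77 in KO and 1.52 in WT, a gene chosen after its values were seen. Its strongest WT peak was 100 bases annotated as 5' UTR on chromosome 14 from 70077378 to 70077477, with an adjusted p of 0.000679. Its strongest KO peak was 375 bases annotated as 3' UTR from 70080084 to 70080458, with an adjusted p of 3.75e-10. At that place the WT list had a longer peak, 70078884 to 70080733, with a log2 of 1.38. WT had 6 peaks on Egr3 and KO 4, and the difference was not tested.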
